A study of Mus musculus with 2 samples.

Results

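The germ cells described here were sorted from foetal mouse ovaries before culture (XX 0 h, 4 libraries) or after 24 h of organ culture in the vehicle DMSO (XX 24 h, 4 libraries). These 8 libraries were taken by name from the 40 germ cell libraries of the series, which also holds XY germ cells, later culture and inhibitors of the FGF receptors (FGFRi) and of MEK1/2 (MEKi). Embryos came from 129T2svJ males carrying an Oct4-eGFP reporter, which marks germ cells, mated with Swiss females, and were collected at E12.5. The XX 0 h gonads were dissociated at once. The XX 24 h gonads were kept on membranes with the mesonephros attached, in DMEM/F12 medium with foetal calf serum, N-acetylcysteine and DMSO, and the mesonephros was taken off afterwards. In both groups the gonads of several embryos were pooled for a sample and GFP-positive cells were collected by fluorescence-activated sorting, so each library is a pool of embryos, and a p-value measures the spread between such pools. The XX 0 h germ cells were neither cultured nor given DMSO, so the effects of 24 h of development, of the culture and of DMSO cannot be told apart.

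Germ cells reach the gonad as proliferating cells that still express genes of the pluripotency network. In the foetal ovary, retinoic acid and BMP signals lead them to express Stra8 and Meiosin, leave the mitotic cycle and enter the prophase of meiosis, in which chromosomes build an axis, break and repair their DNA, and pair. In the foetal testis the same cells are kept out of meiosis, arrest in the mitotic cycle and switch on a genome defence built on piRNAs and DNA methylation.

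RNA was measured as counts of unique molecules primed at the poly(A) tail, and levels are given as counts per 1000000 counts of the scaled library (CPM). Totals were 1454940 to 3591783 counts in XX 0 h and 2061341 to 3117235 in XX 24 h. On the first principal component, which held 59.4% of the variance of these 8 libraries, the groups were apart, but XX 24 h replicate 6 stood at 47.9 against 20.8 to 22.6 for the other 3 libraries of its group. XX 0 h replicate 2, the shallowest of the 8, stood apart on the second component at 30.9. Results that rest on replicate 6 are therefore given with and without it. Defining germ cell genes were detected in every library, with Dazl at 1184 to 1543 CPM, Ddx4 at 224 to 472 CPM and Dppa3 at 599 to 1327 CPM, and markers of other ovarian cells took few counts. The 13 pre-granulosa and Sertoli markers together were 0.00356 to 0.00457% of the counts at 0 h and 0.00296 to 0.00485% at 24 h, the 15 stromal, steroidogenic and mesonephric markers 0.00565 to 0.0109% and 0.00379 to 0.00568%, the 11 endothelial and immune markers 0.0104 to 0.0133% and 0.0065 to 0.0114%, and the 9 erythroid markers 0.00309 to 0.00502% and 0.00285 to 0.00461%. Pecam1, which germ cells also express, gave 1166 and 909 of the endothelial and immune counts in the groups, and no other marker of that list over 22. By a two-sided exact permutation test (70 regroupings) the adjusted p over the 4 lists and the Y-linked genes was 0.143 to 0.686, but a list on its own could not pass, since full separation gives 0.0286, or 0.143 after adjustment over the 5. The stromal share had means of 0.00841 ± 0.00242% and 0.00452 ± 0.000844% (SD, n = 4) with an unadjusted exact p of 0.0571. Insl3 was at 0 in all 8 libraries and Amh had 0 counts at 0 h and 2 at 24 h.

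Each XX 24 h library carried a sample index that a library of the second pool also carried. Both pools were amplified after the index was added, so the index is the label by which molecules were assigned, and the 4 indexes of XX 24 h are shown whole in capitals because every base takes part in the assignment.
XX 24 h replicate 4, shared with XY 72 h FGFRi replicate 5: ACTCGCTA
XX 24 h replicate 5, shared with XY 72 h FGFRi replicate 6: GGAGCTAC
XX 24 h replicate 6, shared with XY 72 h FGFRi replicate 2: GCGTAGTA
XX 24 h replicate 9, shared with XY 72 h FGFRi replicate 4: CGGAGCCT
The 4 Y-linked genes Ddx3y, Eif2s3y, Kdm5d and Uty, which XX cells lack, had 88 counts over the XX 24 h libraries, 21 over XX 0 h and 2097 over the 4 XY partners. Their share of the counts was 8.35e-05 to 0.000481% at 0 h and 0.000577 to 0.00189% at 24 h, highest in replicate 6. The Y-linked rate of XX 0 h, 2.016 per 1000000 counts, was first removed as background. On that basis 3.251% of a partner's counts were taken as carried into the XX 24 h library with its index (2.363 to 3.982% by library). The comparisons were repeated with that share subtracted. Without the removal of background the share would be 4.196%, above the highest library rate. XX 0 h libraries shared their indexes with XX 72 h DMSO libraries (CTCTCTAC, GGACTCCT, TAGGCATG and CGAGGCTG for replicates 2, 3, 4 and 5) and were corrected at the same rate, which was not measured for these pairs because neither side has a Y chromosome.

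Over 24 h, 354 of 15252 genes rose and 139 fell, by a test against a 1.5-fold change in limma at a false discovery rate (FDR) under 0.05. These are 2.32% and 0.911% of the genes tested, the shares that stand beside every count of called list members below. The median log2 fold change of all genes was 0.05. The rises included genes of meiotic chromosomes, of the piRNA pathway and of cholesterol synthesis, and the falls included pluripotency genes and genes of glycolysis. In 488 of the 493 the CPM of the groups did not overlap, against 4229 of all 15252 genes (27.7%). With the shared-index counts subtracted, 284 of the 354 and 135 of the 139 were still called. Without XX 24 h replicate 6, 242 and 88 of them were. That library was the highest of its group for 257 of the 354 genes and the lowest for 93 of the 139. The number of genes called also depended on XX 0 h replicates 4 and 5. It was 318 without replicate 4, of which 204 rose, and 333 without replicate 5, of which 223 rose. Of the 493 genes, 204 were called with each of the 8 libraries left out in turn. Most called genes were protein coding (322 of those that rose and 128 of those that fell), with 10 and 5 long non-coding RNAs. Fewer germ cells of a stage and less RNA per cell cannot be told apart in such sorted pools, here or in the results that follow.

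**Figure D1:**
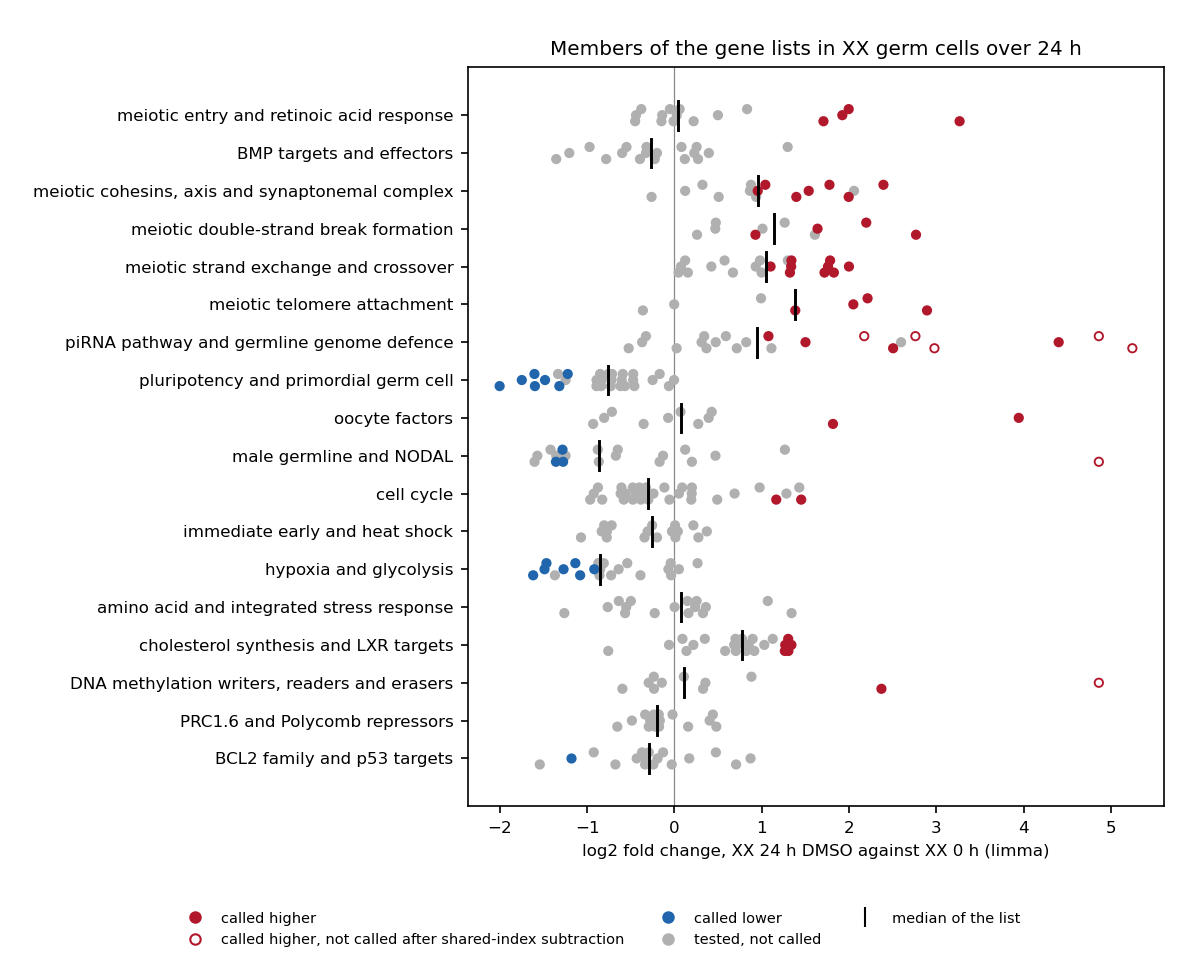
Each point is the log2 fold change (XX 24 h against XX 0 h, limma) of 1 gene of a list, with red and blue for genes called higher and lower, open circles for calls lost after the shared-index subtraction, grey for genes not called and a black bar for the median. The meiotic lists beyond the entry list had medians of 0.95 to 1.38, and all 29 pluripotency and primordial germ cell genes lay below 0.

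The 5 meiotic lists held 77 genes, of which 67 were tested, 27 rose and 0 fell. The other 10 were too low to test or, for Zglp1 and Spo16, had no matching symbol. The median log2 fold change over the 67 was 0.95, against 0.05 over all genes tested, and 40.3% of them rose against 2.32% of all genes. After the subtraction, which lowers XX 0 h counts at a rate not measured there, 34 rose. With 1 library left out at a time, 16 to 29 rose. The count was 16 without XX 24 h replicate 6 and also 16 without XX 0 h replicate 5, and it was 18 without XX 0 h replicate 4. The 16 genes called whichever library was left out were Stra8, Rec8, Sycp1, Sycp2, Sycp3, Tex12, Six6os1, Mei1, Ankrd31, Prdm9, Meiob, Msh4, Tex11, Tex15, Kash5 and Spdya.

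Stra8, the retinoic acid target required for meiotic entry (chromosome 6, 34897098 to 34916279, GRCm39), was at 72.0, 111, 92.3 and 95.3 CPM in XX 0 h and at 775, 938, 1353 and 823 CPM in XX 24 h (replicates 2, 3, 4 and 5, then 4, 5, 6 and 9, an order kept throughout). Every XX 24 h library was far above every XX 0 h library, with replicate 6 the highest. The mean went from 92.7 ± 16.1 to 972.3 ± 262.7 CPM (SD, n = 4), a 9.62-fold rise and a log2 fold change of 3.27 (SE 0.17, limma FDR 1.58e-18). Meiosin, the partner with which Stra8 binds DNA, was low, at 1.399, 2.32, 3.49 and 2.79 CPM and then 11.2, 8.98, 22.8 and 8.38 CPM. The groups did not overlap and the log2 fold change was 1.92 (SE 0.42, limma FDR 0.0432), but it was called in 2 of the 8 fits with 1 library left out, not in that without replicate 6. Rec8, the meiotic cohesin subunit (chromosome 14, 55855455 to 55862852), was at 75.5, 77.6, 88.8 and 82.2 CPM and then at 315, 299.7, 379 and 345 CPM. Both groups were tight and did not overlap, with a log2 fold change of 2.00 (SE 0.13, limma FDR 1.43e-11). Ccnb3, an X-linked cyclin of meiotic cells, rose with a log2 fold change of 1.71 (SE 0.31, limma FDR 0.0177), from a mean of 8.68 to 30.9 CPM, but was not called without replicate 6. These 4 were the risers among 16 tested genes of meiotic entry and the retinoic acid response, whose median was 0.04. Without XX 24 h replicate 6 or XX 0 h replicate 5 only Stra8 and Rec8 of them were called. Dazl, the RNA-binding protein that makes germ cells competent for meiosis, was high in both groups, at 1184 to 1355 and 1336 to 1543 CPM, and these ranges overlapped. The retinoic acid receptor gene Rarb, a common target of the signal, was under the filter on low counts, at 0 to 2.72 CPM and 2.36 to 3.59 CPM.

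Of the genes of the cohesins, chromosome axis and synaptonemal complex, 7 of 15 rose and 0 fell, with a median of 0.95. Sycp3, the axis protein, was at 160, 210.1, 159, 169.7 CPM at 0 h and 472, 463, 809 and 453 CPM at 24 h, and Sycp1, the filament that joins paired axes, was at 201, 231, 208 and 200.1 CPM and then 550.1, 485, 751 and 533 CPM. For both, the lowest XX 24 h library was over the highest XX 0 h library, and replicate 6 was well above the rest. The log2 fold changes were 1.54 (SE 0.14, FDR 2.45e-06) for Sycp3 and 1.396 (SE 0.11, FDR 8.27e-07) for Sycp1, by limma. Sycp2, the partner of Sycp3, rose from 54.5 ± 5.35 to 201.6 ± 66.0 CPM (SD, n = 4), a 3.42-fold change. Tex12, of the central element, had the largest change of the list, from 13.3 to 17.8 CPM at 0 h to 82.5, 79.4, 175.9 and 67.5 CPM at 24 h, a log2 fold change of 2.39 (SE 0.21, limma FDR 7.50e-09). Six6os1 (4930447C04Rik in the annotation) and Syce1, also of the central element, rose by 1.04 and 0.95 on the log2 scale, and Syce1 was called in 3 of the 8 fits with 1 library left out. Smc1b, the meiotic cohesin that was already abundant, was at 792 to 940.0 CPM and then 1415 to 2139 CPM. Its groups did not overlap, but its log2 fold change of 0.88 did not pass (SE 0.12, limma FDR 0.151). Stag3 and Hormad1, at 0.51 and 0.87 on that scale, did not pass either.

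Among 10 genes that make or place meiotic DNA breaks, 4 rose and 0 fell, with a median of 1.14. Mei1, needed for break formation, was at 6.30, 1.16, 3.10 and 1.67 CPM and then 15.9, 10.9, 33.2 and 15.6 CPM, which is a log2 fold change of 2.77 (SE 0.49, limma FDR 0.00193). Ankrd31, which brings the break machinery to its sites, went from 15.1 to 18.6 CPM to 85.3, 51.1, 141.2 and 81.8 CPM, and Prdm9, the methyltransferase that marks those sites, from 23.7 to 31.5 CPM to 101.4, 53.9, 197.7 and 68.7 CPM. The groups of all 3 genes were apart, with log2 fold changes of 2.20 and 1.64 for the last pair (limma FDR 1.02e-07 and 6.15e-04). The fourth, Zcwpw1, a reader of those marks, went from a mean of 329 to 664 CPM (log2 fold change 0.93, SE 0.10, limma FDR 0.0323), and was not called without XX 24 h replicate 6 or XX 0 h replicate 2, 4 or 5, each of which left 3 called genes in the list. Spo11, which cuts the DNA, stayed low, at 2.80 to 5.82 and 5.59 to 7.93 CPM, and was not called (log2 fold change 0.47, SE 0.39).

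In the strand exchange and crossover list, 9 of 20 rose and 0 fell, with a median of 1.05. Without XX 24 h replicate 6 or without XX 0 h replicate 5 the count was 4, and it was 5 without XX 0 h replicate 4. Tex15, needed to load recombinases at breaks, was at 98.6, 74.1, 86.1 and 90.9 CPM and then 361, 229, 499 and 275 CPM, a log2 fold change of 1.83 (SE 0.15, limma FDR 1.24e-08). Meiob, which binds single-stranded DNA at the breaks, was at 12.6 to 19.7 CPM and then 51.3, 52.5, 118.4 and 41.5 CPM, a log2 fold change of 1.72 (SE 0.22, limma FDR 2.82e-04). The 3 other XX 24 h libraries of Meiob lay together, and replicate 6 was well above them. Msh4 and Tex11, both of crossover formation, rose by 1.78 and 1.34 on the log2 scale. Dmc1, the meiotic recombinase, went from a mean of 16.6 to 44.2 CPM (log2 fold change 1.34, limma FDR 0.0333), and Msh5, Shoc1, Rnf212 and Ccnb1ip1 rose by 1.32, 2.00, 1.76 and 1.10. The calls of these 5 were lost without replicate 6, and each also without 3 to 5 of the other libraries, XX 0 h replicate 5 among them. At the telomeres, which attach to the nuclear envelope in prophase, 4 of 7 genes rose and 0 fell, with a median of 1.38. Kash5, the link to dynein, was at 0.386 to 2.72 CPM and then 9.02, 9.45, 22.3 and 7.58 CPM, and Spdya, the activator of CDK2 at telomeres, at 8.39 to 11.2 CPM and then 46.4, 28.8, 97.1 and 36.3 CPM. Their log2 fold changes were 2.89 and 2.05 (limma FDR 0.00105 and 3.34e-05). Majin and Terb1, of the attachment complex, rose by 2.21 and 1.38, and the groups of Terb1 overlapped. The calls of both were lost without XX 24 h replicate 4 or 6 and without XX 0 h replicate 3, 4 or 5, which left 2 called genes in that list.

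**Figure D2:**
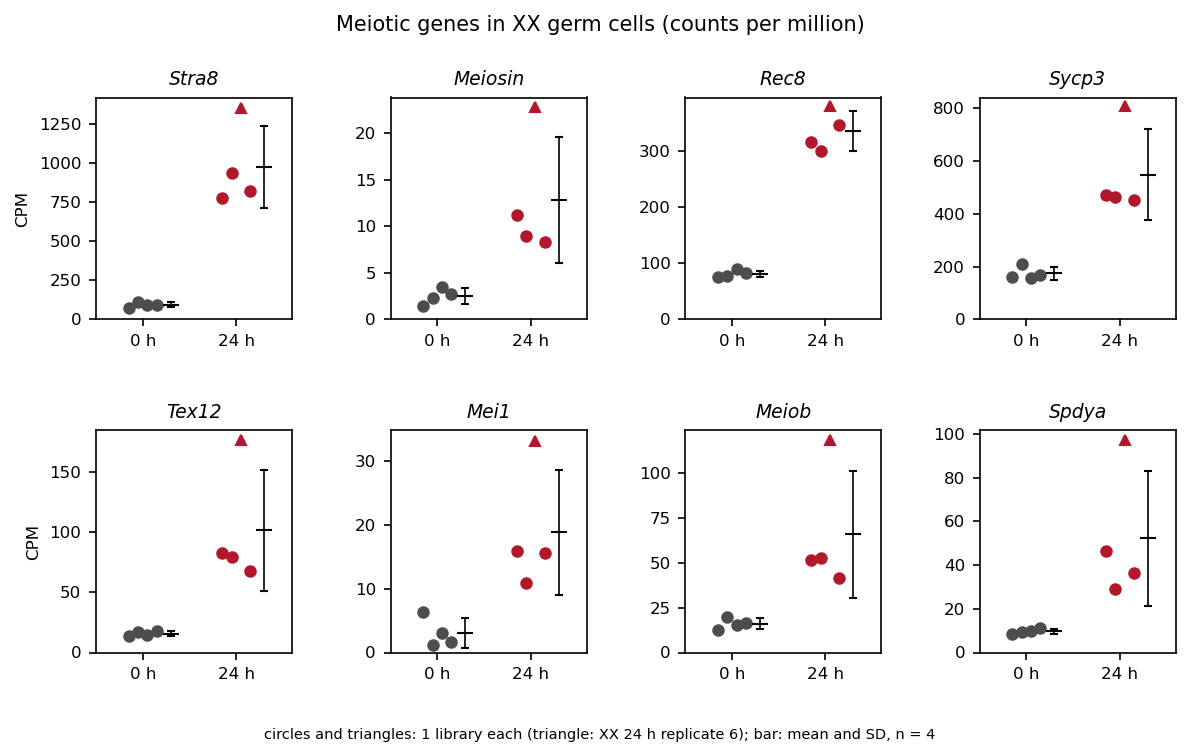
CPM of 8 meiotic genes in the 4 XX 0 h and the 4 XX 24 h libraries, with 1 point a library, a triangle for XX 24 h replicate 6, and the mean with its SD (n = 4). In each panel all XX 24 h points lie above all XX 0 h points, and the triangle is the highest.

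At the rate of XX 24 h, which was not measured for XX 0 h, part of the XX 0 h counts of these genes would come from the XX 72 h libraries with the same index. For the 27 risers a median of 34.7% of the XX 0 h counts were then expected to be carried (1.91% for Rec8 to 72.7%), against 2.16% over all genes tested, and 20 of the 27 were at 20% or more. All 27 had a larger log2 fold change after the subtraction. The subtraction lowers their XX 0 h counts by construction, so this is no separate support for the rises. It went from 2.05 to 3.99 for Spdya, from 1.64 to 2.98 for Prdm9 and from 3.27 to 3.52 for Stra8. In the XX 72 h libraries, which belong to the other pool, mean levels were 696 CPM for Stra8, 70.8 CPM for Rec8, 1890 CPM for Sycp3, 2175 CPM for Sycp1 and 761 CPM for Prdm9. Stra8 and Rec8 were lower there than at 24 h, and the other 3 were higher.

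To show the sequence in front of these genes, the 250 bases before the transcription start of each tested protein-coding gene were read from GRCm39 with the GENCODE M39 starts and searched on both strands for CACGTG, the E-box bound by MAX and its partners, and TCCCGC, the E2F6 motif. MAX, MGA and E2F6 belong to PRC1.6, a repressor of germline genes. The windows of 4 risers with a CACGTG are printed 5′ to 3′ on the strand of the gene, ending at the base before the start, with CACGTG and TCCCGC (or its reverse complement GCGGGA) in capitals.
Sycp3 (chr10:88295181-88295430, plus strand): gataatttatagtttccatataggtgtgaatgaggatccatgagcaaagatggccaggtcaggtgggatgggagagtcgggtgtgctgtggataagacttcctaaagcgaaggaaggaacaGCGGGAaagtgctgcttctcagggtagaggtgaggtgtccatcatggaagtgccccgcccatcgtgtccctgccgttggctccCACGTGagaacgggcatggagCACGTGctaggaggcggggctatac
Sycp1 (chr3:102843456-102843705, minus strand): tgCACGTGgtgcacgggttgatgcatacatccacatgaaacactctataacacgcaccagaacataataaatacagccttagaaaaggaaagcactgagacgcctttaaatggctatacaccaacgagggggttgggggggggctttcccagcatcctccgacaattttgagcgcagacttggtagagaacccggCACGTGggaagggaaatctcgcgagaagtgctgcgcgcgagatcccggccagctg
Tex12 (chr9:50472632-50472881, minus strand): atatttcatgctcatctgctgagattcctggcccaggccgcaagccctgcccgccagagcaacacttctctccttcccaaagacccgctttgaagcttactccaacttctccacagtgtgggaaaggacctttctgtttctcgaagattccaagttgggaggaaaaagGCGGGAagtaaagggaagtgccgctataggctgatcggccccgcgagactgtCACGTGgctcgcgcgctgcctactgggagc
Meiob (chr17:25023013-25023262, plus strand): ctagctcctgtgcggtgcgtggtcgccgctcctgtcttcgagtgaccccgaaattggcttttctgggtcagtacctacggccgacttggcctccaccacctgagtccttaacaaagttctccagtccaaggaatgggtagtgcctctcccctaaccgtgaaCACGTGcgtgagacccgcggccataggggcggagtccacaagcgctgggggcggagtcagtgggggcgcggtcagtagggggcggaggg
CACGTG was in 8 of 27 windows of the meiotic risers (29.6%), in 1 of 40 of the tested meiotic genes that were not called (2.5%), in 39 of 322 of all risers (12.1%), in 11 of 128 of the genes that fell (8.59%) and in 1016 of all 12419 windows (8.18%). TCCCGC was in 11 of 27 (40.7%), 12 of 40 (30.0%), 77 of 322 (23.9%), 30 of 128 (23.4%) and 3225 of all windows (26.0%). These are counts of letters in a window, with no test and no measurement of binding. Of 16 genes of PRC1.6 and other Polycomb repressors, 0 were called by limma, 0 passed at an unadjusted p under 0.05, and edgeR and DESeq2 called 0 (median log2 fold change -0.19). The eBayes test of limma, against no change and with an observed fold over 1.5, called 1 lower.

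BMP signals act with retinoic acid in the ovary, and the targets tested did not pass the test against a 1.5-fold change. Of 18 tested BMP targets and effectors, 0 were called by limma in either direction, 3 were at an unadjusted p under 0.05, edgeR called 1 lower, DESeq2 called 0 and the eBayes test called 1 higher and 5 lower. Over all genes tested these shares were 10.1% at an unadjusted p under 0.05, 7.22% by edgeR, 3.54% by DESeq2 and 19.7% by eBayes. The median log2 fold change was -0.27. Id1, an inhibitor of differentiation factors and a direct BMP target, was at 148, 224, 172 and 185 CPM at 0 h and 109, 129, 128 and 81.0 CPM at 24 h. Its groups did not overlap, but the log2 fold change of -0.78 did not pass (SE 0.13, limma FDR 0.560). Msx1, at 28.3 to 44.6 and 31.2 to 52.6 CPM, overlapped, as did Id2, Id3 and Msx2.

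In the piRNA pathway and germline genome defence, 9 of 22 tested genes rose and 0 fell, with a median of 0.95. Only 4 of these 9, Nxf2, Tdrd1, Mael and Mov10l1, were still called after the shared-index subtraction, and 1 member was then called lower. This was Morc1, a repressor of transposons, at -1.58 on the log2 scale (-0.52 and not called before). The 5 that were lost had 43.2 to 99.2% of their XX 24 h counts expected to be carried, and the 4 that were kept had 10.0 to 43.1%. Mean levels in the XY 72 h FGFRi partners were 155 to 310.1 CPM for the 5 and 305 to 738.5 CPM for the 4. Spocd1, needed for piRNA-directed DNA methylation (chromosome 4, 129822561 to 129850908), was not counted in any XX 0 h library and was at 5.29, 6.62, 14.4 and 7.58 CPM in XX 24 h. Against a floor of 3 counts over the XX 0 h group it was at least 29.4-fold higher (limma FDR 1.09e-05). Its 17, 14, 29 and 19 counts were 3.10%, 3.46%, 3.26% and 3.35% of the counts in the library with the same index, close to the rate of the Y-linked genes, and 99.2% of them were expected to be carried. Dnmt3l, the cofactor of de novo DNA methylation, was at 0, 0.386, 0 and 0 CPM and then 7.16, 5.199, 19.3 and 5.99 CPM, with 83.6% expected to be carried. Piwil4, the nuclear PIWI protein, and Tdrd9, a helicase that acts with it, were at 0.699 to 5.04 and 2.23 to 3.86 CPM at 0 h and at 15.1 to 33.2 and 15.6 to 48.6 CPM at 24 h, with 62.2% and 53.8% expected to be carried. Gtsf1, a further piRNA factor, had 43.2%. None of these 5 was called after the subtraction.

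Of the 4 that were still called, Nxf2, an X-linked germline member of a family of RNA export factors with close copies, was at 5.60, 3.09, 3.49 and 2.51 CPM and then 49.5, 69.5, 152.6 and 66.7 CPM, a log2 fold change of 4.40 (SE 0.56, limma FDR 2.45e-06) with 43.1% expected to be carried. After the subtraction it was 5.46, because its XX 0 h counts were reduced too. Tdrd1, a scaffold of piRNA granules, was at 4.20 to 12.02 CPM and then 39.5, 41.6, 68.4 and 46.3 CPM (log2 fold change 2.51, 31.0% carried, and 2.16 after the subtraction). Mael and Mov10l1, which act in piRNA production, went from means of 58.9 and 119 CPM to 178 and 263 CPM, with log2 fold changes of 1.501 and 1.08 (limma FDR 8.46e-06 and 0.00246) and 14.5% and 10.0% carried. Piwil2, at 55.2 to 86.1 and 93.6 to 145.2 CPM, was not called (log2 fold change 0.59).

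Over all 354 risers, 28 had 50% or more of their XX 24 h counts expected from the partner library and 258 had under 10%, and the median of 4.81% was near the 4.84% of all genes tested. The 8 with the most were Tekt1 (124%), Mat1a (109%), Spocd1 (99.2%), the Y-linked Rbmyf8 (97.9%), Zscan4-ps4 (87.1%), Gm3858 (83.7%), Dnmt3l (83.6%) and Lct (81.8%). A value over 100% means that more counts were expected than seen. None of the 8 was called after the subtraction. Stra8 at 0.67% and Rec8 at 0.867% had little.

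**Figure D3:**
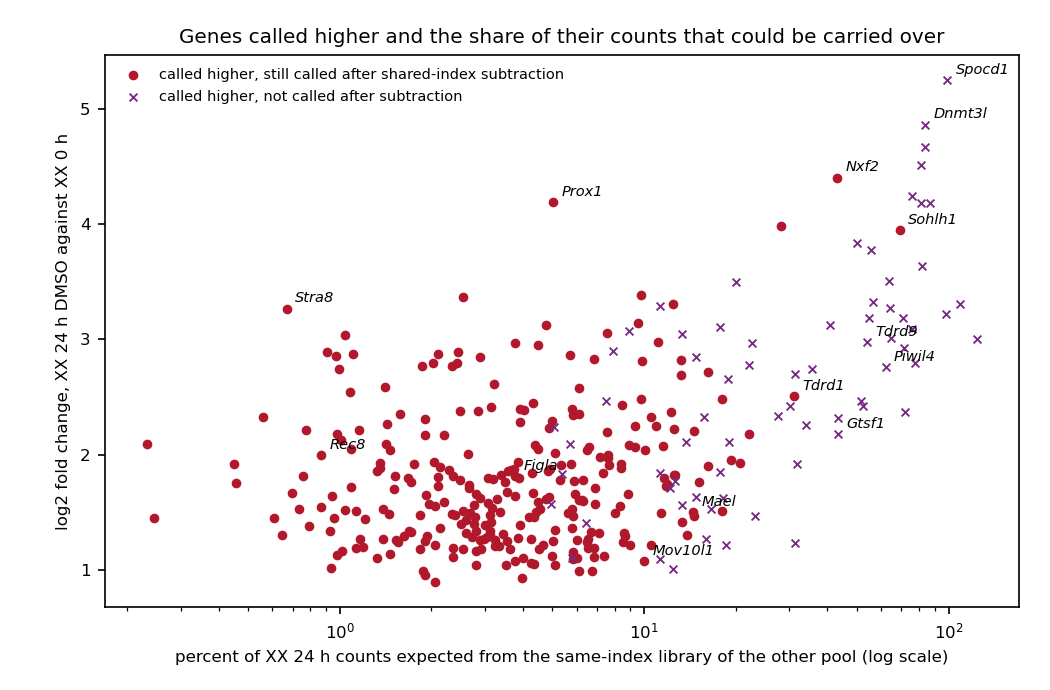
Each point is a gene called higher in XX 24 h, with the percent of its XX 24 h counts expected from the same-index library on a log axis and its log2 fold change (limma) on the other, and crosses for the genes not called after the subtraction. Crosses gather at the right, with Spocd1 at 99.2% and Dnmt3l at 83.6%, while Stra8, Rec8 and Prox1 lie at 5.02% or less.

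All 29 tested genes of pluripotency and of primordial germ cells had a negative log2 fold change, and 7 fell with 0 rising (median -0.76 against 0.05 over all genes). All 7 were called with each library left out in turn and after the subtraction. L1td1, an RNA-binding protein of stem cells, was at 180.4, 207, 178.0 and 188 CPM at 0 h and 53.8, 42.5, 24.8 and 59.9 CPM at 24 h, a large fall in every library (log2 fold change -2.002, SE 0.18, limma FDR 1.02e-07). Nanog, a core pluripotency factor, was at 65.7, 79.2, 74.5 and 74.1 CPM and then 24.9, 29.8, 12.4 and 19.6 CPM, a log2 fold change of -1.75 (SE 0.20, limma FDR 3.34e-05). Replicate 6 was the lowest XX 24 h library for both, and the groups were far apart without it. The other 5 were Klf2 (-1.60), Esrrb (-1.60), Tcl1 (-1.48), Tfap2c (-1.32) and Zfp42 (-1.22), which are transcription factors of naive stem cells and germ cells, except Tcl1, a coactivator of AKT. Pou5f1, the gene that drives the sorting reporter, was at 65.1, 111.6, 91.2 and 90.6 CPM and then 50.1, 62.9, 54.5 and 55.5 CPM. The groups just did not overlap, and the log2 fold change of -0.71 did not pass (SE 0.13, limma). Sox2, Dppa3 and Nanos3 had values of -0.59, -0.62 and -1.33 and did not pass.

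Of 19 tested genes of the male germline and NODAL list, 3 fell and 1 rose, with a median of -0.87. The riser was Dnmt3l, described above. The 3 that fell were Etv4, Etv5 and Lhx1, of which Etv4 and Etv5 are transcription factors induced by FGF and ERK signalling. Etv5 was at 179.7, 153.3, 159.4 and 165 CPM and then 57.3, 69.0, 58.0 and 77.8 CPM, and Etv4 at 25.5 to 39.2 CPM and then 9.42 to 14.3 CPM. Neither gene's groups overlapped. Their log2 fold changes were -1.28 (SE 0.13, limma FDR 2.49e-04) and -1.36 (SE 0.23, limma FDR 0.0252), and Etv4 was called in only 2 of the 8 fits with 1 library left out. Lhx1, a homeobox gene, went from 74.1 to 111.7 CPM to 29.7 to 46.3 CPM. Nanos2, the switch to the male fate, was at 0 to 0.776 CPM and then 0.311, 0, 4.96 and 2.40 CPM, was not called (log2 fold change 1.27, SE 0.91), and had 58.1% of its XX 24 h counts expected to be carried. In the BCL2 family and p53 target list 1 of 17 fell and 0 rose. This was Trp53 itself, at 220.3, 242, 244 and 255 CPM and then 127, 120, 61.4 and 111.4 CPM (log2 fold change -1.18, SE 0.13, limma FDR 8.49e-04). Its target Mdm2 overlapped between the groups, at 108 to 130.1 and 125 to 141 CPM.

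In the hypoxia and glycolysis list 7 of 21 genes fell and 0 rose, with a median of -0.85. Over all genes tested 0.911% fell, and the median was 0.05. With 1 library left out, 4 to 7 fell, and the 4 were found without XX 24 h replicate 9. Eno1 (enolase) was at 252, 219, 246 and 231 CPM and then 73.4, 87.9, 78.8 and 96.6 CPM, a log2 fold change of -1.47 (SE 0.11, limma FDR 3.16e-08). Aldoa (aldolase) was at 413, 479, 472 and 426 CPM and then 172, 218, 179 and 236 CPM, a log2 fold change of -1.14 (SE 0.10, limma FDR 1.20e-04). Replicate 6 was within its group for both, and no library crossed over. Pfkl and Pfkp (phosphofructokinases), Slc2a3 (a glucose transporter), Gapdh and Pkm fell by 1.62, 1.49, 1.27, 1.08 and 0.92 on the log2 scale. Gapdh and Pkm were called in 4 of the 8 fits with 1 library left out. At least 1 other of the 7 lost its call without XX 24 h replicate 9. Gapdh has many near-identical pseudogenes and Eno1 a close copy, so their counts may be split. Ldha, the lactate dehydrogenase, was at 71.3 to 115.6 and 47.1 to 63.9 CPM and did not pass (-0.85, limma FDR 0.408).

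Cholesterol synthesis went the other way. Of 23 genes of that pathway and its regulation by LXR, 5 rose and 0 fell, and 21 had a positive value (median 0.77). Over all genes tested 2.32% rose, and the median was 0.05. Without replicate 6, 7 rose, and without XX 24 h replicate 5 or replicate 9, 3 rose. Nsdhl was at 22.4, 32.1, 24.4 and 28.7 CPM and then 62.2, 79.4, 65.9 and 69.5 CPM, and Lss (lanosterol synthase) at 30.1, 24.3, 23.7 and 30.9 CPM and then 66.3, 70.9, 44.6 and 70.2 CPM. The groups did not overlap, and replicate 6 was the lowest XX 24 h library for Lss. Their log2 fold changes were 1.34 and 1.27 (limma FDR 0.00105 and 0.00484). Mvd, Pmvk and Mvk, of the mevalonate steps, rose by 1.31, 1.30 and 1.27, and Mvk was called in 2 of the 8 fits with 1 library left out. Without XX 24 h replicate 5 or replicate 9, at least 1 other of the 5 risers lost its call. Abca1, an exporter of cholesterol under LXR, was at 13.99 to 19.0 CPM and then 27.9 to 43.6 CPM and did not pass (limma FDR 0.0716).

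**Figure D4:**
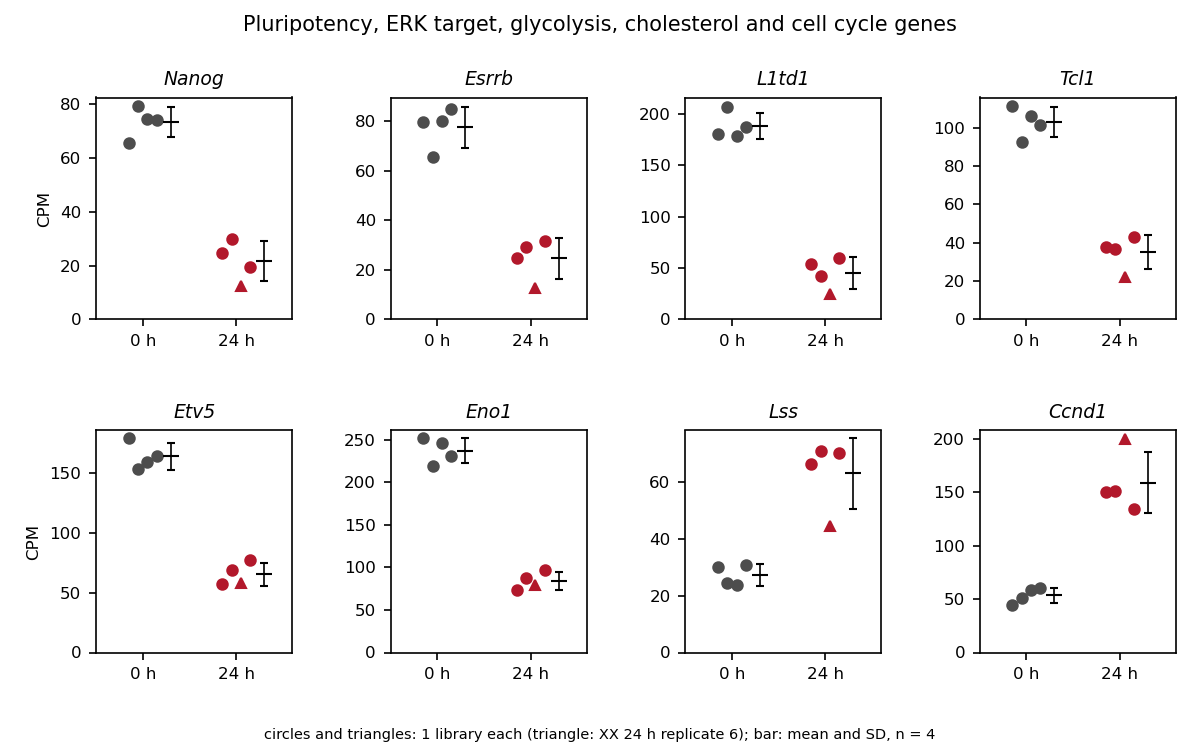
CPM of 8 genes outside meiosis in the 4 XX 0 h and the 4 XX 24 h libraries, with 1 point a library, a triangle for XX 24 h replicate 6, and the mean with its SD (n = 4). Nanog, Esrrb, L1td1, Tcl1, Etv5 and Eno1 are lower at 24 h in all 4 libraries, and Lss and Ccnd1 higher.

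Of 31 cell cycle genes 2 rose and 0 fell, with a median of -0.30, while edgeR, which called 7.22% of all genes, called 4 higher and 2 lower. After the subtraction limma called 3 higher and 1 lower, adding the G1/S cyclin Ccne2 (1.22) and the G1 cyclin Ccnd3 (-0.99), which were at 0.98 and -0.96 before. Ccnd1, a G1 cyclin, was at 44.8, 50.6, 58.2 and 60.8 CPM and then 150.6, 151, 200.2 and 135 CPM (log2 fold change 1.45, SE 0.13, limma FDR 4.93e-06). Cdkn2d, an inhibitor of its kinases, rose from 28.2 ± 8.52 to 67.3 ± 10.7 CPM (SD, n = 4) with a log2 fold change of 1.17, and was not called without XX 0 h replicate 4. Mki67, the proliferation marker, overlapped, at 356 to 460 and 226 to 386 CPM. Of 17 immediate early and heat shock genes 0 were called by limma, 0 were at an unadjusted p under 0.05, edgeR and DESeq2 called 0 and the eBayes test called 2 lower, and Fos was at 71.0 to 85.3 and 35.8 to 108.2 CPM. Of 16 genes of the amino acid and integrated stress response, 0 were called by limma, 3 were at an unadjusted p under 0.05, edgeR called 2 higher and 1 lower, DESeq2 called 0 and the eBayes test called 2 higher and 3 lower, beside 10.1%, 7.22%, 3.54% and 19.7% of all genes in that order of tests.

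Among 11 tested oocyte factors 2 rose and 0 fell, with a median of 0.07, and 9 more were not tested. Figla, the regulator of the primordial follicle, was at 8.39, 9.65, 8.92 and 7.52 CPM and then 25.5, 25.1, 72.3 and 27.9 CPM (log2 fold change 1.82, SE 0.30, limma FDR 0.00570), and was not called without XX 0 h replicate 5. Sohlh1, a factor of early follicle growth, was at 0.699 to 1.16 CPM and then 11.8, 15.6, 31.2 and 16.4 CPM, and had 69.3% of its XX 24 h counts expected to be carried. It was called after the subtraction at 3.251% but not at the highest library rate. Nobox was at 0.699 to 1.95 and 0.473 to 1.98 CPM. Of 11 writers, readers and erasers of DNA methylation 2 rose and 0 fell, Dnmt3l and Tet3. Tet3, which oxidises methylated cytosine, was at 6.99, 6.18, 7.37 and 4.18 CPM and then 28.6, 28.4, 30.2 and 33.1 CPM, a 5.17-fold rise (log2 fold change 2.37, SE 0.30, limma FDR 3.15e-05), with all 4 XX 24 h libraries close together. Uhrf1 and Tet1, at 0.88 and -0.60, did not pass.

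Among called genes whose groups did not overlap, the 12 with the largest rise were Spocd1, Dnmt3l, Gm3858, Drc1, Nxf2, Ighm, Prox1, Zscan4-ps4, Rrad, Rbfox3, Sohlh1 and Dscaml1, and only Nxf2, Prox1, Rbfox3 and Sohlh1 of them were still called after the subtraction. Prox1, a homeobox factor best known from lymphatic vessels, was at 0.699, 0, 0 and 0 CPM and then 3.42, 6.15, 6.44 and 2.79 CPM (log2 fold change 4.19, SE 0.65, limma FDR 1.03e-04), with 5.02% expected to be carried. The 12 with the largest fall, also without overlap, were Trp73, Platr10, Slc16a9, Tspan1, Ddx60, Fndc1, Plk3, Serpinb9b, Scgn, Dpf3, Umodl1 and Selenow. Trp73, a relative of p53, was at 10.5, 6.95, 4.66 and 6.69 CPM and then 0.934, 0.473, 0.496 and 0 CPM (log2 fold change -3.61, SE 0.64, limma FDR 0.00108). All but Selenow were at 17.4 CPM or less on average at 0 h. Chromosome X held 40 of the 354 risers (11.3%) and 4 of the 139 that fell (2.88%), against 4.16% of the genes tested. These shares were not counted after the subtraction or without replicate 6. Of the X-linked risers, Gm3858 and Nxf2 had 83.7% and 43.1% of their XX 24 h counts expected to be carried. The X-linked risers included Nxf2, Magea10, Taf7l, Rhox13, Tex11, Ccnb3 and several genes of the Xlr family, whose copies share sequence, so that their separate counts are uncertain.

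XY germ cells from the same stage, with 4 libraries at 0 h and 4 after 24 h in DMSO in the same pool, were used to ask which of these changes differed by sex. In XY, 246 genes rose (1.61%) and 203 fell (1.33%). Of the 354 XX risers 41 also rose in XY (11.6% of the XX and 16.7% of the XY risers), and of the 139 that fell in XX 36 also fell in XY (25.9% and 17.7%). The median XY log2 fold change was 0.67 over the XX risers and -0.78 over the genes that fell in XX. In XY, 5 of 21 hypoxia and glycolysis genes fell (median -0.45) and 2 of 23 cholesterol genes rose (median 0.74). Of either list, 0 genes passed the test of a sex difference given below. These 8 XY libraries also shared indexes with the second pool, XY 0 h with XY 72 h DMSO and XY 24 h with XY 72 h MEKi, and the subtraction was applied to them at the same rate, which was not measured for these pairs. A change in one sex alone is no test of a difference, so the XX change was set against the XY change for each gene. The XX change was above the XY change in 33 genes (0.216%) and below it in 36 (0.236%). After the subtraction 24 and 35 of them were still called, while the total of genes called went from 69 to 126 (201 at the highest library rate). With 1 XX library left out at a time 44 to 77 genes were called, and the lowest of these counts was without XX 0 h replicate 5. The XY libraries were not left out.

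None of the 67 meiotic genes was among the 69, although 6 had an unadjusted p under 0.05, edgeR called 2 (Tex12 and Tex15), DESeq2 called 1 (Tex12) and the eBayes test of limma called 8, beside 5.98%, 1.16%, 0.505% and 8.5% of all genes in that order. After the shared-index subtraction limma called 3, namely Tex12 and Sycp2 with the larger rise in XX (differences of 2.34 and 1.66) and Aldh1a2, a retinoic acid synthase, with the opposite sign (-3.18). At the highest library rate it called 8. Stra8 went from 8.72 to 106.5 CPM on average in XY, a log2 fold change of 3.74 beside 3.27 in XX, and the difference of -0.47 did not pass (SE 0.41, limma). Its XY level after 24 h was near its XX level before culture. Rec8 went from 10.2 to 36.4 CPM in XY, and its difference was -0.03 (SE 0.30). In XY 9 of the 67 rose and the median was 0.42, beside 27 and 0.95 in XX.

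Among pluripotency genes, Tcl1 and Nanos3 differed. Tcl1 went from 102.8 to 35.0 CPM on average in XX and from 109.2 to 137.0 CPM in XY, a difference of -1.81 (SE 0.19, limma FDR 9.60e-05). Nanos3, which protects primordial germ cells, went from 29.4 to 11.9 CPM in XX and from 41.1 to 86.9 CPM in XY (-2.41, SE 0.38, limma FDR 0.00376). Nanog, at 73.4 to 21.7 CPM in XX and 73.4 to 58.9 CPM in XY, had a difference of -1.50 with a limma FDR of 0.053. Tet2, an eraser of DNA methylation, and Id4, a BMP target, rose in XY alone by the test, with differences of -1.76 and -1.43 (limma FDR 0.00718 and 0.0400). Mean Tet2 went from 44.4 to 36.8 CPM in XX and from 14.8 to 40.15 CPM in XY. Mean Id4 went from 78.6 to 70.05 CPM in XX and from 26.2 to 63.0 CPM in XY. Both were lower in XY than in XX before culture. Sesn2, a target of the integrated stress response, had means of 19.4 and 42.6 CPM in XX and 53.9 and 30.2 CPM in XY, a difference of 1.78 (limma FDR 0.0313). In the genome defence list Spocd1, Dnmt3l, Tdrd9, Tdrd1 and Nxf2 were called, and of these only Nxf2 was called after the subtraction, at 3.67 to 84.6 CPM in XX and 42.6 to 54.1 CPM in XY.

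The 6 largest positive differences were those of Spocd1 (6.93), Dnmt3l (6.32), Gm3858 (5.63), Htra3 (5.49), Drc1 (4.88) and Nxf2 (4.44). After the subtraction only Htra3 (5.54) and Nxf2 (5.08) of them were called, and the others were at 1.31, 1.69, 3.85 and 0.97. Htra3, a secreted protease, was at 0.388 to 1.399 CPM and then 7.78, 2.84, 9.42 and 3.99 CPM in XX, and its mean went from 2.22 to 0.430 CPM in XY. Only 1.41% of its XX 24 h counts were expected to be carried. Large negative differences were those of Ddr2 (-5.79), Adcy10 (-5.09), Sytl3 (-3.67), Pdzk1 (-3.48) and Xist (-3.48), all of which rose in XY and were not called in XX. The difference of Adcy10 was not called after the subtraction. Pdzk1, a scaffold of membrane transporters, overlapped between the XX groups, at 6.99 to 18.9 and 8.09 to 14.4 CPM, and went from 9.73 to 98.8 CPM in XY. Xist, the RNA that coats an inactive X chromosome, was at 13.3, 10.0, 14.4 and 8.92 CPM in XX 0 h and 5.91, 2.84, 7.43 and 3.19 CPM in XX 24 h. These groups did not overlap, but the log2 fold change of -1.36 did not pass (SE 0.42, limma FDR 0.404). In XY it went from 2.83 to 11.9 CPM, and the difference had a limma FDR of 0.00690.

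**Figure D5:**
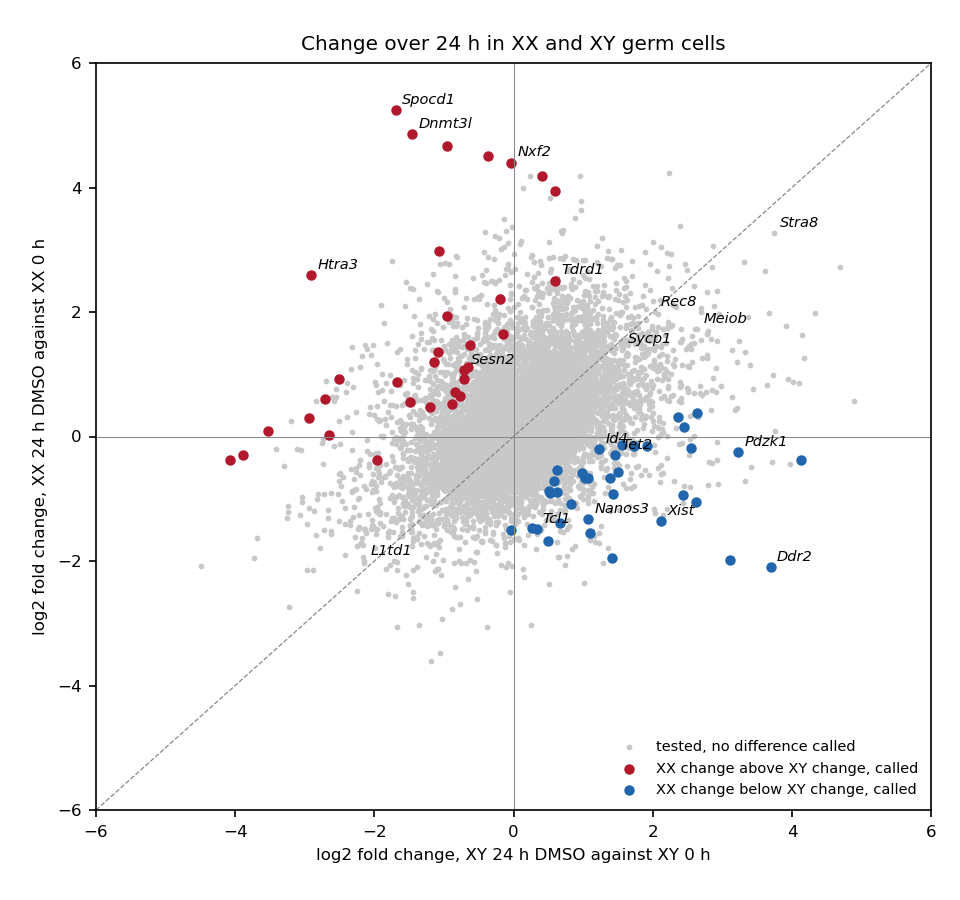
Each point is 1 of 15252 genes, with its log2 fold change over 24 h in XY on the x axis and in XX on the y axis (limma), the dashed line at equal change, and colour for genes whose changes differed by the test. Stra8 and Rec8 lie near the line, Nxf2 and Htra3 above it, and Tcl1, Pdzk1 and Ddr2 below it.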

How the data were processed

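The authors deposited whole-number counts per gene, 1 column per library. Per the methods of the study, molecules were primed at the poly(A) tail with a sample index and a unique molecular identifier, pooled, sequenced, demultiplexed and counted with scPipe after alignment to GRCm39 with Rsubread, and reads with 1 identifier were collapsed. The counts were neither normalised nor filtered. Groups follow the library names. Genes (42422, of which 40391 matched by Ensembl identifier) took symbols and coordinates from GENCODE M39.

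Genes passing filterByExpr of edgeR 4.0.16 over all 40 libraries (15252, with 99.2% of counts) were scaled by TMM and tested with voomWithQualityWeights and the treat method of limma 3.58.1 for changes over 1.5-fold (R 4.3.3), 1 mean per group, at a Benjamini-Hochberg FDR under 0.05, as in the study's methods. The script was tested on simulated data. The sex difference was the interaction (XX 24 h less XX 0 h) less (XY 24 h less XY 0 h). Alternatives were edgeR glmTreat, DESeq2 1.42.0, other filters and scalings, thinning, a replicate block, each XX 0 h and XX 24 h library left out, and subtraction of shared-index counts.

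The members and lists were chosen with earlier results of these data known. Named genes are list members, the 12 largest rises and falls that did not overlap, the 6 largest differences between the sexes in each direction and the 8 risers with most counts carried. Single values of 4 genes under this rule are not reported here. Replicates of a group differed by more than sampling noise.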

Additional observations from a re-analysis of the deposited data

Results flagged for a closer look

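In 28 of 268 sets of 4 values examined, 1 library lay far from the other 3 of its group, by the ratio of its gap to the range of the group (above Dixon's 95% critical value for 4 samples). The chance rate of about 1 in 20 holds for independent, normally distributed values. These sets come from the same libraries, and some hold 0 in 3 of them, so that rate cannot be set against the count seen. Of the 24 sets in XX 24 h, 20 were at replicate 6, which was the highest library in 18. It was the highest for the meiotic genes Sycp3 (0.945), Msh5 (0.950), Rnf212 (0.905), Ccnb3 (0.884), Zcwpw1 (0.884), Kash5 (0.873), Tex12 (0.862) and Meiob (0.858), for the genome defence genes Mov10l1 (0.963), Mael (0.928), Morc1 (0.9215) and Dnmt3l (0.861), and for Figla (0.939), H2-D1 (0.9396), Ccne2 (0.857), Cdkn2d (0.861), Gm3858 (0.830) and Dpf3 (0.8291). It was the lowest for Sox2 (0.854) and Serpinb9b (0.844). In XX 24 h, replicate 9 stood apart for Slc16a9 (0.870, highest), Plk3 (0.881, lowest) and Adcy10 (1.0, highest), and replicate 5 for Rbmyf8 (0.878, lowest). In XX 0 h, Dnmt3l, Drc1, Prox1 and Lct had a ratio of 1.0 because 1 library had counts and the other 3 had 0.

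The change over 24 h differed between XX and XY germ cells for 21 genes named in the text, by the interaction term in limma at FDR under 0.05 (XX minus XY log2 change). It was higher in XX for Spocd1 (6.93), Dnmt3l (6.32), Gm3858 (5.63), Htra3 (5.49), Drc1 (4.88), Nxf2 (4.44), Tdrd9 (4.05), Rrad (3.78), Sohlh1 (3.36), Gpx3 (2.10), Tdrd1 (1.90) and Sesn2 (1.78). It was lower in XX for Ddr2 (-5.79), Adcy10 (-5.09), Sytl3 (-3.67), Pdzk1 (-3.48), Xist (-3.48), Nanos3 (-2.41), Tcl1 (-1.81), Tet2 (-1.76) and Id4 (-1.43). After the shared-index subtraction those of Spocd1, Dnmt3l, Gm3858, Drc1, Tdrd9, Rrad, Sohlh1, Tdrd1 and Adcy10 were not called.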

How the results depend on the processing

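The total of genes called was 493 in the reported test, 1101 by edgeR glmTreat, 3008 by limma eBayes with an observed fold, 258 after thinning to 1178953 counts, and 318 to 470 with 1 library left out. The total of differences between XX and XY was 69, and 177, 1297, 30 and 44 to 77 under the same settings, with only XX libraries left out. It was 126 after the shared-index subtraction and 201 with subtraction at the highest library rate, which was chosen after seeing the data. At that rate Gm3858 (-0.45) and Rrad (-0.39) turned negative in XX, and the differences of Spocd1 (-0.10), Dnmt3l (-0.031), Drc1 (-0.36) and Rrad (-2.45) turned negative. The 24 h minus 0 h share of erythroid markers, in percent of counts, was -0.000619 to 2.19e-05 with 1 library left out, positive without XX 0 h replicate 4.

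Numbers 4 and 5 occur in both XX groups, but libraries with a shared number did not deviate together (correlations -0.00122 and -0.000506), and the labels give it no meaning. With the replicate block, 138 genes and 22 differences were called, 74 of 155 values lost their call (among them all 7 pluripotency falls and all 5 cholesterol rises), Id4 was at 0.045 and Nanos2 at -0.26 (both not called). With DESeq2 size factors all 155 values compared kept their direction, and 1 (Ccnd3) gained a call. With no filter on low counts 33 of 155 lost their call, and with the filter of CPM over 1 in at least 4 libraries 18 did. With 1 library left out 12 to 32 of the 155 values lost their call, 0 or 1 gained one and 0 reversed. The subtraction ended 25 calls and added 4, and thinning, which changes the depth alone, ended 41 and added 0. The causes were not tested.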

Other observations

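Genes of selenoproteins, which carry selenium as selenocysteine and include the glutathione peroxidases and thioredoxin reductases, fell in part. They were picked after their values were seen, so they have no test as a group. Of 24 such genes 18 were tested, 4 fell and 1 rose, and the median log2 fold change was -0.40. Over all genes tested 0.911% fell and 2.32% rose. Gpx1 was at 418, 900.1, 638 and 457 CPM in XX 0 h and at 70.01, 181.0, 107.0 and 152 CPM in XX 24 h, and Selenoh at 427, 545, 483 and 467 CPM and then 137, 159, 128.3 and 147 CPM. The groups did not overlap for either gene. The log2 fold changes were -2.22 for Gpx1, -1.74 for Selenoh, -2.14 for Txnrd1 and -2.48 for Selenow (limma FDR 5.69e-07, 3.97e-11, 1.19e-09 and 7.10e-08), and all 4 were called with each library left out and after the shared-index subtraction. In XY germ cells the same 4 fell, with log2 fold changes of -1.54, -1.21, -1.45 and -2.26 in that order (limma). Gpx3 went from 12.6 ± 1.70 to 35.3 ± 5.45 CPM (SD, n = 4) in XX, a log2 fold change of 1.47 (limma FDR 0.00590) that was not called without XX 0 h replicate 5, and its change differed from that in XY by 2.10 (limma FDR 0.0127). Gpx4, at 27.3 to 73.8 and 35.2 to 48.7 CPM, overlapped.

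Of 14 tested H2 histocompatibility genes, also picked after values were seen, H2-K1, H2-D1 and H2-Ab1 (3 genes) rose and 0 fell, and B2m, the light chain of class I molecules, rose too. The other 11 H2 genes were not called, and 2.32% of all genes tested rose. H2-K1 was at 34.3, 21.2, 23.7 and 18.1 CPM at 0 h and 83.4, 63.8, 143.2 and 56.7 CPM at 24 h (log2 fold change 1.77, SE 0.19, limma FDR 1.36e-05), and 41.2% of its XX 0 h counts were expected to be carried from XX 72 h libraries. B2m and H2-D1 had log2 fold changes of 1.73 and 1.58, and each was called in 2 of the 8 fits with 1 library left out. The H2 genes share sequence, so their separate counts are uncertain.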
